A study of Homo sapiens with 9 samples.

Results

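Long intergenic noncoding RNAs are transcripts from loci between protein-coding genes. They are usually spliced and polyadenylated like messenger RNAs but carry no long reading frame, and most of them are scarce. Several are known to act as scaffolds, as decoys for proteins or microRNAs, or in the control of a neighbouring gene. The members described here were the gene names made of LINC and a number, selected on measured values: a mean of at least 20 reads over the 9 libraries. There were 105 such genes among 427 LINC names and 27673 genes in the count table. A further 153 LINC names had no reads in any library, and 169 had reads but lay under the threshold. Just inside it were LINC00867 and LINC00965 with a mean of 20.1 reads and LINC00890 with 20.2, and just outside it were LINC00115 with 19.2, LINC00312 with 17.6 and LINC00202-2 with 17.2.

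RNA came from A498 cells, an established human clear cell renal carcinoma line, infected with a lentiviral short hairpin RNA and kept under puromycin. The 3 groups carried a control hairpin (shControl), a hairpin against BMAL1 (shBMAL1), the clock transcription factor listed in the table as ARNTL, or a hairpin against ARNT (shARNT), the common partner of the hypoxia-inducible factors. Each group had 3 biological replicates and each target 1 hairpin, so effects of the target and of that hairpin cannot be told apart. Library totals were 35269857 to 36099083 reads. ARNT was at 48.1, 50.6 and 52.6 CPM (reads scaled to a common library size) in shControl and at 9.31, 9.12 and 9.95 in shARNT, with 33.0, 33.3 and 30.5 in shBMAL1. The shBMAL1 libraries thus also lay below the shControl libraries in ARNT. ARNTL was at 16.7, 15.9 and 16.2 CPM in shControl and at 5.41, 5.54 and 4.12 in shBMAL1, with 23.9, 25.1 and 22.5 in shARNT, a rise of 0.55 on the log2 scale (adjusted p = 8.3e-06). All 8 renal markers examined were detected, but most were called lower. In shARNT 6 were lower and 1 higher (median log2 fold change -1.24), where 41.3% of all genes tested were lower and 40.5% higher. In shBMAL1 7 were lower and 1 higher (median -0.35), with 31.5% and 31.9% of all genes. Of 8 markers of blood, vessel and liver cells, CD3E, MS4A1 and HBB had no reads, and PTPRC, PECAM1, VWF and CDH5 averaged under 5. ALB, with 12, 7 and 16 reads in shControl, 26, 35 and 31 in shBMAL1, and 2, 6 and 5 in shARNT, was called higher in shBMAL1 and lower in shARNT. The summed level of the 8 was 0.571 to 0.881 CPM in shControl libraries, 1.17 to 1.44 CPM with shBMAL1, and with shARNT 0.152 to 0.202 CPM, and their part in the member levels was not tested.

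LINC is a naming scheme and not a measured property. In the GENCODE 44 annotation on GRCh37, 66 members were found under the same symbol, 31 under a newer one and 8 not at all. In total 76 were annotated as lncRNA, while 12 are now listed as protein-coding genes, among them LINC00116 (MTLN), LINC00493 (SMIM26), LINC00998 (SMIM30) and LINC00961 (SPAAR), which encode small proteins. The exons of 15 members overlapped a coding exon on the opposite strand and those of 8 on the same strand. Whether counting used the strand was not stated, so reads of these pairs may be mixed. LINC00086 and LINC00087 are former names of the near-identical genes SMIM10L2A and SMIM10L2B, and their separate values are uncertain.

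ARNT dimers with hypoxia-inducible factors bind DNA around the letters ACGTG or GCGTG, and BMAL1 dimers bind the E-box CACGTG. RefSeq promoters on GRCh38.p14, 250 bases before to 50 after the start, were matched for 77 members, 68 of them with a single start. The promoters below belong to the 2 most abundant members and to members whose levels separated all 3 groups. Each runs 5′ to 3′ on the strand of the gene, and capitals mark ACGTG or GCGTG on either strand, overlapping matches included. LINC00657 (NORAD) lies on the minus strand at chr20:36050911-36051210, LINC00942 on the plus strand at chr12:1500241-1500540, LINC00346 (PRECSIT) on the minus strand at chr13:110870259-110870558, LINC00460 on the plus strand at chr13:106376314-106376613 and LINC00313 on the minus strand at chr21:43478174-43478473. The GENCODE model of LINC00942 is on the opposite strand to the RefSeq one.
LINC00657: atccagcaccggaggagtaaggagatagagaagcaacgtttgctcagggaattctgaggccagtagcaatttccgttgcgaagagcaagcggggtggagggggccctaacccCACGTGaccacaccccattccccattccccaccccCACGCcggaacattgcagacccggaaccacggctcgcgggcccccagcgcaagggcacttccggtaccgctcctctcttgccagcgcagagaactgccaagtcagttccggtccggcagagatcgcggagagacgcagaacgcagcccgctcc
LINC00942: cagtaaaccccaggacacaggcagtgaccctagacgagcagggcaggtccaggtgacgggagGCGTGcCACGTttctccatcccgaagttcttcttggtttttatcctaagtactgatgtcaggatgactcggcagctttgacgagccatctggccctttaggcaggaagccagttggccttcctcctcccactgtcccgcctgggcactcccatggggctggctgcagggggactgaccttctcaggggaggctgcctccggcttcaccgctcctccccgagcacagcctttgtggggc
LINC00346: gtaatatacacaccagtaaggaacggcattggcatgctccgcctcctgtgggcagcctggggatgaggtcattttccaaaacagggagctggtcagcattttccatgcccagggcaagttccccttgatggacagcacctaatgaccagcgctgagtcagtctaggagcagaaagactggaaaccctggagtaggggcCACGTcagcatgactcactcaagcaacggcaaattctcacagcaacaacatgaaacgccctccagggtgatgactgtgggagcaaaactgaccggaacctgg
LINC00460: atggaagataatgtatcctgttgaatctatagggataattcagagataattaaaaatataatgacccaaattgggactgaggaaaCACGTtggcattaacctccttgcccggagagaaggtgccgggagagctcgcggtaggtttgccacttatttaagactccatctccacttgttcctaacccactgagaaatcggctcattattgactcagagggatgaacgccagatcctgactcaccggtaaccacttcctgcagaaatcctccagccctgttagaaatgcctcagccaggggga
LINC00313: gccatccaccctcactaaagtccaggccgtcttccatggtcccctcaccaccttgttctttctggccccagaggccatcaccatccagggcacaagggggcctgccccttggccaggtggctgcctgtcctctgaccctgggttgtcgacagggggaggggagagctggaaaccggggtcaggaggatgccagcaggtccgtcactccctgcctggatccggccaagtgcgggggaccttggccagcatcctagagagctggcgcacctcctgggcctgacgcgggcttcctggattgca
The LINC00657 promoter held an E-box and a separate GCGTG, and the LINC00313 promoter held none of these letters. ACGTG or GCGTG was present in 34 of 68 members and in 48.4% of all 35116 RefSeq promoters of this length. These promoters are not limited to tested genes with a single start. Among all genes tested with a single start, 4851 held these letters and 2828 did not. The members thus held them less often than these genes, a difference that was not tested. CACGTG was present in 3 members (4.41%) against 7.26% of all promoters, namely LINC00657, LINC00493 and LINC00471.

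The pool of LINC reads was dominated by a few transcripts. Members together held 0.178% to 0.184% of the reads of a library in shControl, 0.170% to 0.173% in shBMAL1 and 0.201% in shARNT. The 5 most abundant held 61.9% of all member reads. Their share of the member reads was 56.6% to 58.5% in shControl libraries, 57.5% to 59.3% in shBMAL1 and 68.4% to 69.6% in shARNT. LINC00657 (NORAD), a cytoplasmic RNA that binds PUMILIO proteins and is known for guarding genome stability, had a mean of 29463 reads. It was followed by LINC00942 with 5576, LINC00094 (BRD3OS) with 2246, LINC01000 with 1786 and LINC00673 with 1563. Per kilobase of annotated exon, LINC00657 had 5455 reads, LINC00942 2307, LINC00493 1121 and LINC00998 760. The value for LINC00942 rests on its GENCODE model, on the opposite strand to the RefSeq one, and is uncertain. The value of 7759 for LINC00674 rests on a model of only 160 bases and is not comparable. In all, 88 members averaged at least 20 reads in all 3 groups, 11 in 2 groups and 6 in 1 group.

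ARNT depletion lowered more members than it raised. Against shControl, 62 of 105 members were lower (59.0%) and 26 higher (24.8%) at an adjusted p under 0.1 in edgeR's quasi-likelihood test, where 41.3% of the 15551 genes tested were lower and 40.5% higher. The median log2 fold change of the members was -0.46, against -0.01 over all genes tested. At least a 2-fold change was reached by 36 of the lower and 8 of the higher members. Scaling by library size alone moved the median of all genes to 0.23 and that of the members to -0.22, and then gave 51 lower and 31 higher members, where 32.9% of all genes were lower and 50.3% higher. The members' median lay 0.45 below that of all genes under both scalings. Scaling shifts all genes of a library nearly alike, so this distance had to stay and is no check. Members are scarcer than most genes, and their median standard error was 0.16 against 0.09 for all genes.

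BMAL1 depletion changed fewer members. Against shControl, 41 were lower (39.0%) and 28 higher (26.7%), with 31.5% and 31.9% of all genes tested. The median log2 fold change was -0.11 against 0.00 for all genes. It was 0.02 over the 61 members annotated as lncRNA without coding exon overlap, so its sign depended on which names were counted. The direct contrast of shARNT with shBMAL1 compares the depleted groups with each other, though the control libraries share its fit. In it 59 members were lower (56.2%) and 27 higher (25.7%), with 41.1% and 40.1% of all genes tested. The median was -0.41 against -0.01 for all genes. Library size alone moved the members' median to -0.22 in this contrast, where all genes were at 0.18 with 34.0% lower and 48.0% higher, and to -0.06 in shBMAL1 against shControl. Members with at least 100 reads on average (65) gave 38 lower and 17 higher against shControl in shARNT, while in shBMAL1 25 fell and 21 rose.

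**Figure D1:**
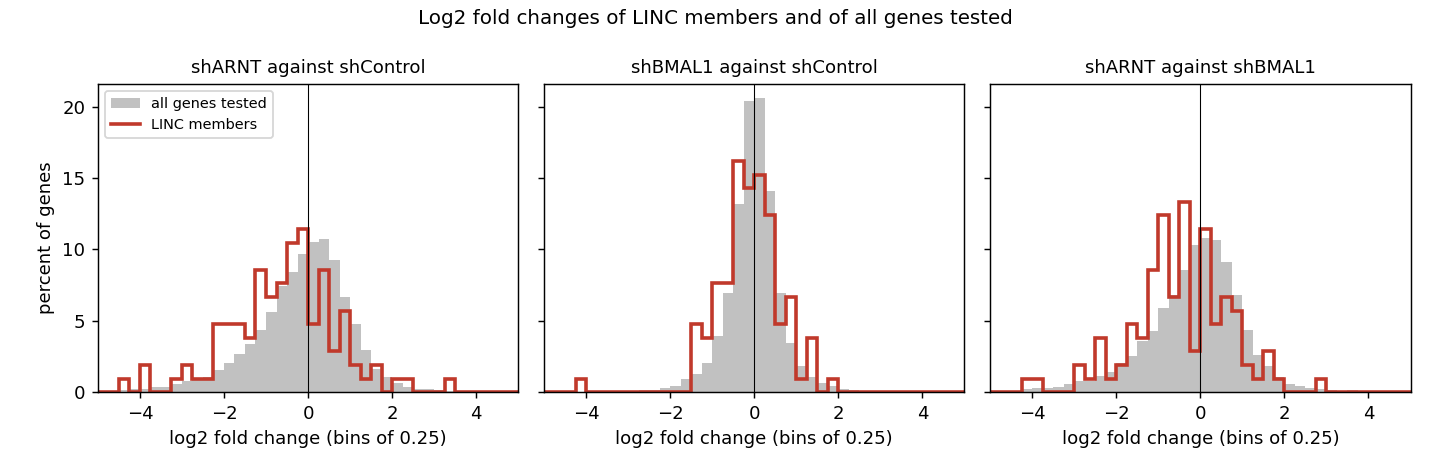
Log2 fold changes in 3 contrasts, in bins of 0.25, for LINC members (red line, 105) and all genes tested (grey, 15551), each as percent of its own set. The members lie to the left of all genes in both contrasts with shARNT, with medians of -0.46 and -0.41, and near them in shBMAL1 against shControl, with a median of -0.11.

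**Figure D2:**
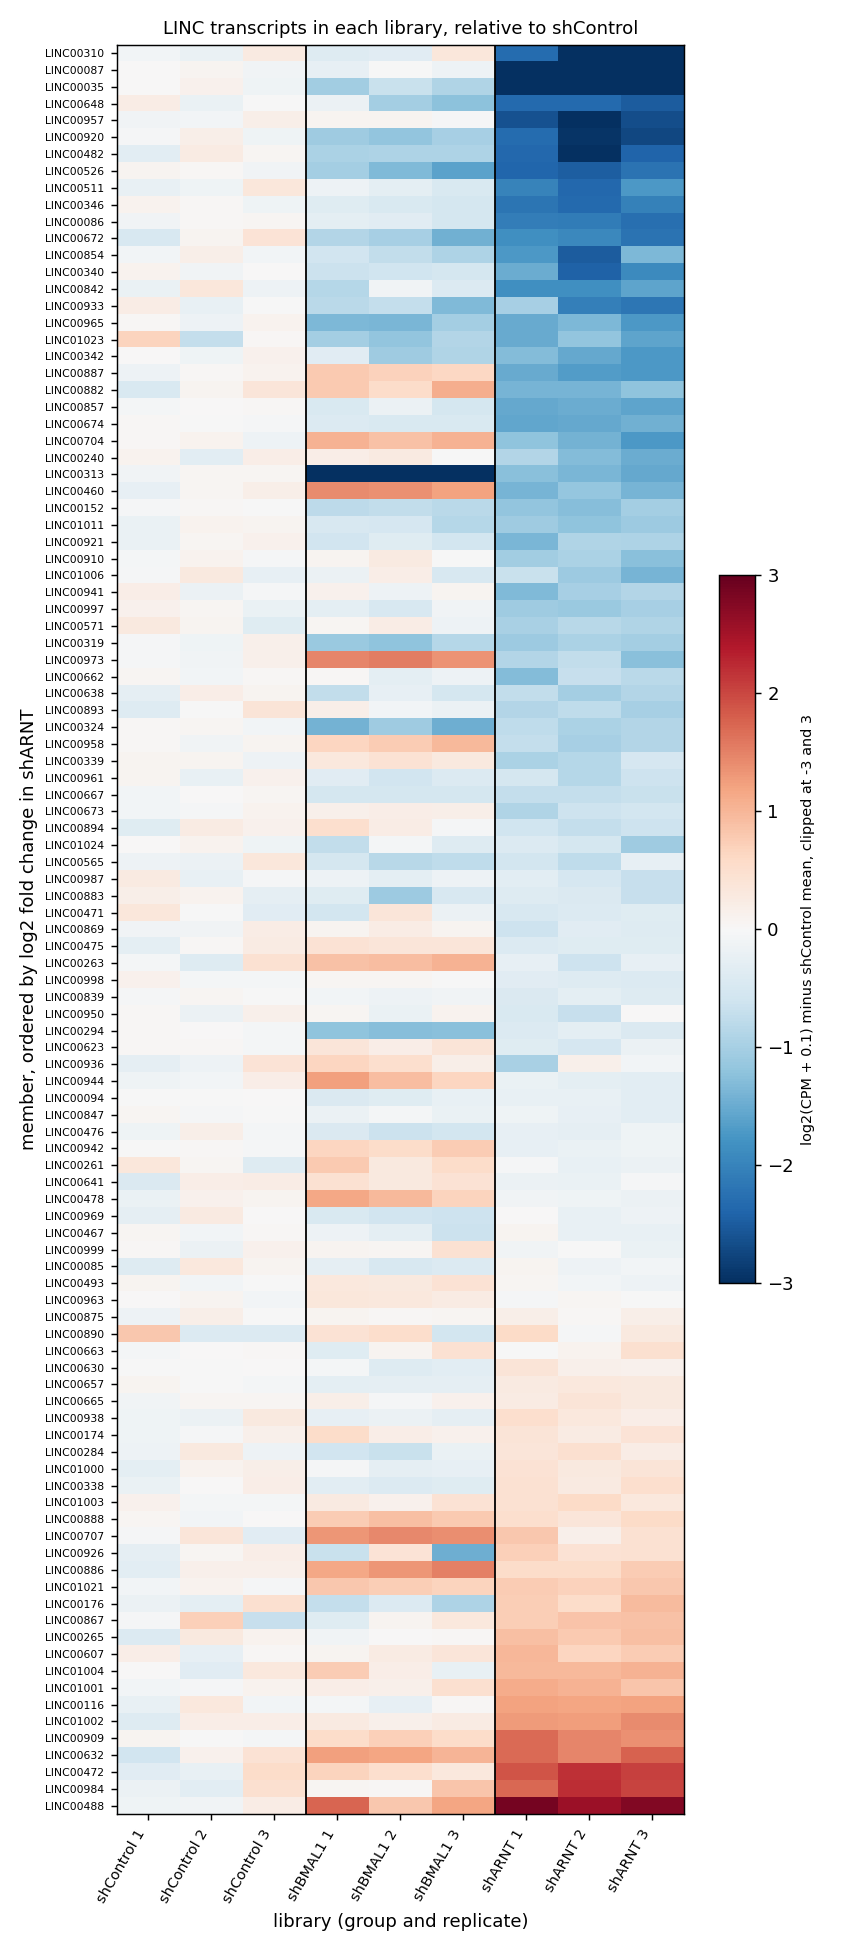
Level of every member (rows, ordered by the log2 fold change in shARNT) in each library (columns), as log2(CPM + 0.1) minus the shControl mean, with the colour clipped at -3 and 3. The 3 replicates of a group resemble each other for most members, blue rows outnumber red ones in shARNT (62 lower and 26 higher calls), and LINC00313 is the darkest row in shBMAL1.

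The steepest falls under ARNT depletion left some members close to absent. LINC00310 had 32, 29 and 41 reads in shControl, 26, 27 and 45 in shBMAL1, and 5, 1 and 0 in shARNT. Its log2 fold change in shARNT was -4.26 ± 0.57 (SE, n = 3 per group, adjusted p = 9.5e-07), and in shBMAL1 it was -0.11 ± 0.37 (adjusted p = 0.82). LINC00087 was at 9.58, 10.1 and 8.78 CPM in shControl, 7.89, 9.37 and 8.55 in shBMAL1, and 0.454, 0.682 and 0.730 in shARNT. The shARNT libraries were 15.1-fold lower than shControl, whereas shControl and shBMAL1 overlapped. Its near-identical partner LINC00086 was at 12.7, 13.8 and 14.2 CPM in shControl and 3.13, 3.08 and 2.77 in shARNT, a 4.53-fold fall, and the split of reads between the pair is uncertain.

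LINC00035 (BICDL3P), annotated as a pseudogene transcript, overlaps 68 exonic bases of ABHD11 on the opposite strand. It was at 23.5, 25.5 and 21.7 CPM in shControl, 11.4, 14.7 and 12.5 in shBMAL1, and 2.02, 1.54 and 1.56 in shARNT. The groups did not overlap, with a fall of 1.83-fold in shBMAL1 (adjusted p = 3.2e-07) and 13.8-fold in shARNT (adjusted p = 3.6e-16). ABHD11 itself changed by -1.23 on the log2 scale in shARNT and by 0.13 in shBMAL1. LINC00957 was at 4.83, 4.89 and 5.87 CPM in shControl, 5.47, 5.48 and 5.06 in shBMAL1, and 0.757, 0.531 and 0.730 in shARNT. It fell 7.69-fold in shARNT (adjusted p = 6.5e-12), while shBMAL1 lay within the range of shControl. LINC00648, with 46, 33 and 38 reads in shControl, had 6, 6 and 5 in shARNT, an 8.07-fold fall, and 35, 18 and 15 in shBMAL1. Its log2 fold change in shBMAL1 was -0.83 (adjusted p = 0.042), and this call was lost without shControl replicate 1 (-0.70), shBMAL1 replicate 2 (-0.68) or shBMAL1 replicate 3 (-0.61).

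LINC00346 (PRECSIT) showed the same order of groups at a much higher level. It was at 54.9, 53.0 and 46.7 CPM in shControl, 39.9, 37.6 and 35.4 in shBMAL1, and 11.2, 10.1 and 12.5 in shARNT. No group overlapped another, and the log2 fold change was -0.45 ± 0.07 in shBMAL1 (adjusted p = 2.2e-05) and -2.19 ± 0.08 in shARNT (adjusted p = 1.4e-15). LINC00152 (CYTOR), an RNA studied in many carcinomas, was at 51.8, 54.1 and 52.4 CPM in shControl, 30.7, 31.5 and 29.9 in shBMAL1, and 23.0, 21.8 and 25.9 in shARNT. It fell 1.72-fold in shBMAL1 and 2.24-fold in shARNT, and the shARNT libraries were below the shBMAL1 libraries (adjusted p = 1.8e-05). LINC00526 was at 7.27, 7.05 and 6.33 CPM in shControl, 3.36, 2.67 and 2.20 in shBMAL1, and 1.24, 1.16 and 1.41 in shARNT, again with no overlap between groups.

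Fewer members rose in shARNT, and most of the largest rises started from very low levels. LINC00488 had 4, 4 and 6 reads in shControl, 24, 11 and 15 in shBMAL1, and 66, 52 and 61 in shARNT. It was 10.4-fold higher in shARNT (adjusted p = 1.4e-07) and 3.39-fold higher in shBMAL1 (adjusted p = 0.0026), and it reached the selection threshold through shARNT alone. LINC00984 (INAFM2, now listed as coding) had 7, 6 and 13 reads in shControl, 9, 9 and 18 in shBMAL1, and 42, 61 and 53 in shARNT, a 4.96-fold rise in shARNT, while shControl and shBMAL1 overlapped. It too reached the threshold through shARNT alone, the group where it was high. LINC00632, known as the locus from which the circular RNA CDR1as is made, had 13, 23 and 29 reads in shControl, 55, 53 and 47 in shBMAL1, and 90, 75 and 95 in shARNT. It was 3.33-fold higher in shARNT and 2.30-fold higher in shBMAL1.

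LINC00472 was at 0.841, 0.911 and 1.63 CPM in shControl, 1.78, 1.57 and 1.38 in shBMAL1, and 4.29, 5.31 and 4.81 in shARNT. It rose 4.25-fold in shARNT (adjusted p = 2.3e-08). In shBMAL1 it overlapped shControl with a log2 fold change of 0.48 (adjusted p = 0.096), a call lost without replicate 1 or 2 of shControl (0.31 and 0.35) or of shBMAL1 (0.39 and 0.49). It shares 949 exonic bases with OGFRL1 on the opposite strand, which changed by 0.61 on the log2 scale in shARNT. LINC00909 (ZNF407-AS1) was at 3.27, 3.10 and 2.97 CPM in shControl, 4.62, 5.19 and 4.59 in shBMAL1, and 10.4, 8.75 and 8.14 in shARNT, with no overlap between groups. LINC00116, which encodes the mitochondrial microprotein mitoregulin, was at 5.62, 8.11 and 6.11 CPM in shControl, 6.23, 5.46 and 6.70 in shBMAL1, and 15.3, 14.9 and 15.3 in shARNT. It rose 2.29-fold in shARNT (adjusted p = 1.2e-08), and shBMAL1 overlapped shControl.

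The largest change under BMAL1 depletion was in LINC00313. It was at 18.2, 20.6 and 20.4 CPM in shControl, 0.965, 1.16 and 1.06 in shBMAL1, and 8.15, 7.58 and 6.75 in shARNT. The 3 groups did not overlap: it fell 18.5-fold in shBMAL1 (log2 fold change -4.21 ± 0.13, adjusted p = 1.2e-15) and 2.63-fold in shARNT (-1.39 ± 0.10, adjusted p = 6.0e-11), and was 7.04-fold higher in shARNT than in shBMAL1. Its locus is at chr21:44881840-44899414 on the minus strand (GRCh37), 34829 bases from SIK1, the gene of a salt-inducible kinase. SIK1 had a mean of 169 ± 1.18 CPM (SD) in shControl, 39.0 ± 1.79 in shBMAL1 and 126 ± 19 in shARNT. Its log2 fold change was -2.12 ± 0.08 in shBMAL1 and -0.42 ± 0.07 in shARNT. LINC00319, 19470 bases from SIK1 in the same interval, was at 16.8, 15.9 and 19.2 CPM in shControl, 7.95, 7.37 and 9.49 in shBMAL1, and 8.08, 8.85 and 8.44 in shARNT, so that here the depleted groups overlapped each other and both lay below shControl.

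Of the next falls in shBMAL1 several were in scarce members, but LINC00294 was abundant. LINC00294, which shares 263 exonic bases with CSTF3 on the opposite strand, was at 43.8, 43.0 and 40.8 CPM in shControl, 18.2, 17.4 and 17.7 in shBMAL1, and 32.2, 34.8 and 31.6 in shARNT. The groups did not overlap, with a fall of 2.39-fold in shBMAL1 (adjusted p = 9.7e-13) and 1.29-fold in shARNT. LINC00965 had 36, 31 and 38 reads in shControl, 12, 12 and 16 in shBMAL1, and 12, 14 and 10 in shARNT. It fell 2.70-fold in shBMAL1 and 3.46-fold in shARNT, and the depleted groups overlapped. Like LINC01023, it averaged 20 reads in shControl alone, so it was selected through the group where it was high. LINC00324 was at 2.64, 2.70 and 2.45 CPM in shControl, 0.906, 1.19 and 0.882 in shBMAL1, and 1.49, 1.29 and 1.36 in shARNT, a fall of 2.61-fold and 1.88-fold. LINC01023 had 61, 21 and 38 reads in shControl, 17, 15 and 19 in shBMAL1, and 13, 17 and 12 in shARNT, with a wide spread in shControl.

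Some members rose in shBMAL1 and fell in shARNT, and for these the direct contrast was large. LINC00973 was at 7.78, 7.41 and 8.87 CPM in shControl, 22.3, 23.2 and 20.4 in shBMAL1, and 4.29, 4.78 and 3.27 in shARNT. The rise was 2.74-fold in shBMAL1 (adjusted p = 7.3e-10), the fall 1.95-fold in shARNT (adjusted p = 6.6e-07), and shARNT was 5.34-fold below shBMAL1. LINC00460, an RNA often reported at high levels in carcinomas, was at 3.18, 3.98 and 4.30 CPM in shControl, 10.3, 10.0 and 8.94 in shBMAL1, and 1.39, 1.64 and 1.39 in shARNT. It rose 2.55-fold in shBMAL1 (adjusted p = 3.9e-08), fell 2.59-fold in shARNT (adjusted p = 1.4e-07) and was 6.61-fold lower in shARNT than in shBMAL1. LINC00942 was at 137, 142 and 134 CPM in shControl, 214, 203 and 232 in shBMAL1, and 117, 119 and 126 in shARNT. Its rise of 1.57-fold in shBMAL1 was larger than the spread of the libraries, whereas its log2 fold change of -0.19 in shARNT became 0.05 when only library size was used for scaling.

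LINC00657 moved the other way by small amounts. It was at 846, 797 and 766 CPM in shControl, 660, 664 and 669 in shBMAL1, and 974, 1000.2 and 984 in shARNT. The groups did not overlap, with a log2 fold change of -0.27 ± 0.04 in shBMAL1 (adjusted p = 2.3e-06) and 0.30 ± 0.04 in shARNT (adjusted p = 3.1e-07). LINC00338 (SNHG20), a small nucleolar RNA host that shares exonic bases with SEC14L1, was at 5.59, 6.44 and 7.38 CPM in shControl, 5.18, 4.79 and 4.94 in shBMAL1, and 8.93, 7.76 and 9.12 in shARNT. LINC01000 and LINC00176 were also called lower in shBMAL1 and higher in shARNT, but the shBMAL1 calls were lost when single libraries were left out. LINC01000 had 1264, 1660 and 1751 reads in shControl and 1546, 1333 and 1347 in shBMAL1, so these groups overlapped. In shARNT it had 2491, 2260 and 2426. The log2 fold change of LINC00176 went from -0.77 to -0.48 without shControl replicate 3, and that of LINC01000 went from -0.19 to between -0.10 and -0.17 without replicate 2 or 3 of shControl or of shBMAL1.

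LINC00707 and LINC00886 were highest in shBMAL1. LINC00707 was at 0.811, 1.09 and 0.636 CPM in shControl, 2.22, 2.41 and 2.35 in shBMAL1, and 1.51, 0.935 and 1.18 in shARNT. It rose 2.74-fold in shBMAL1 (adjusted p = 5.4e-05). The shARNT libraries overlapped shControl, with a log2 fold change of 0.52 (adjusted p = 0.083), and this call was lost without replicate 1 or 3 of shControl (0.48 and 0.34) or of shARNT (0.32 and 0.53). LINC00886 was at 1.41, 1.97 and 2.00 CPM in shControl, 4.09, 4.61 and 5.20 in shBMAL1, and 2.65, 2.63 and 3.10 in shARNT, with all 3 groups apart.

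**Figure D3:**
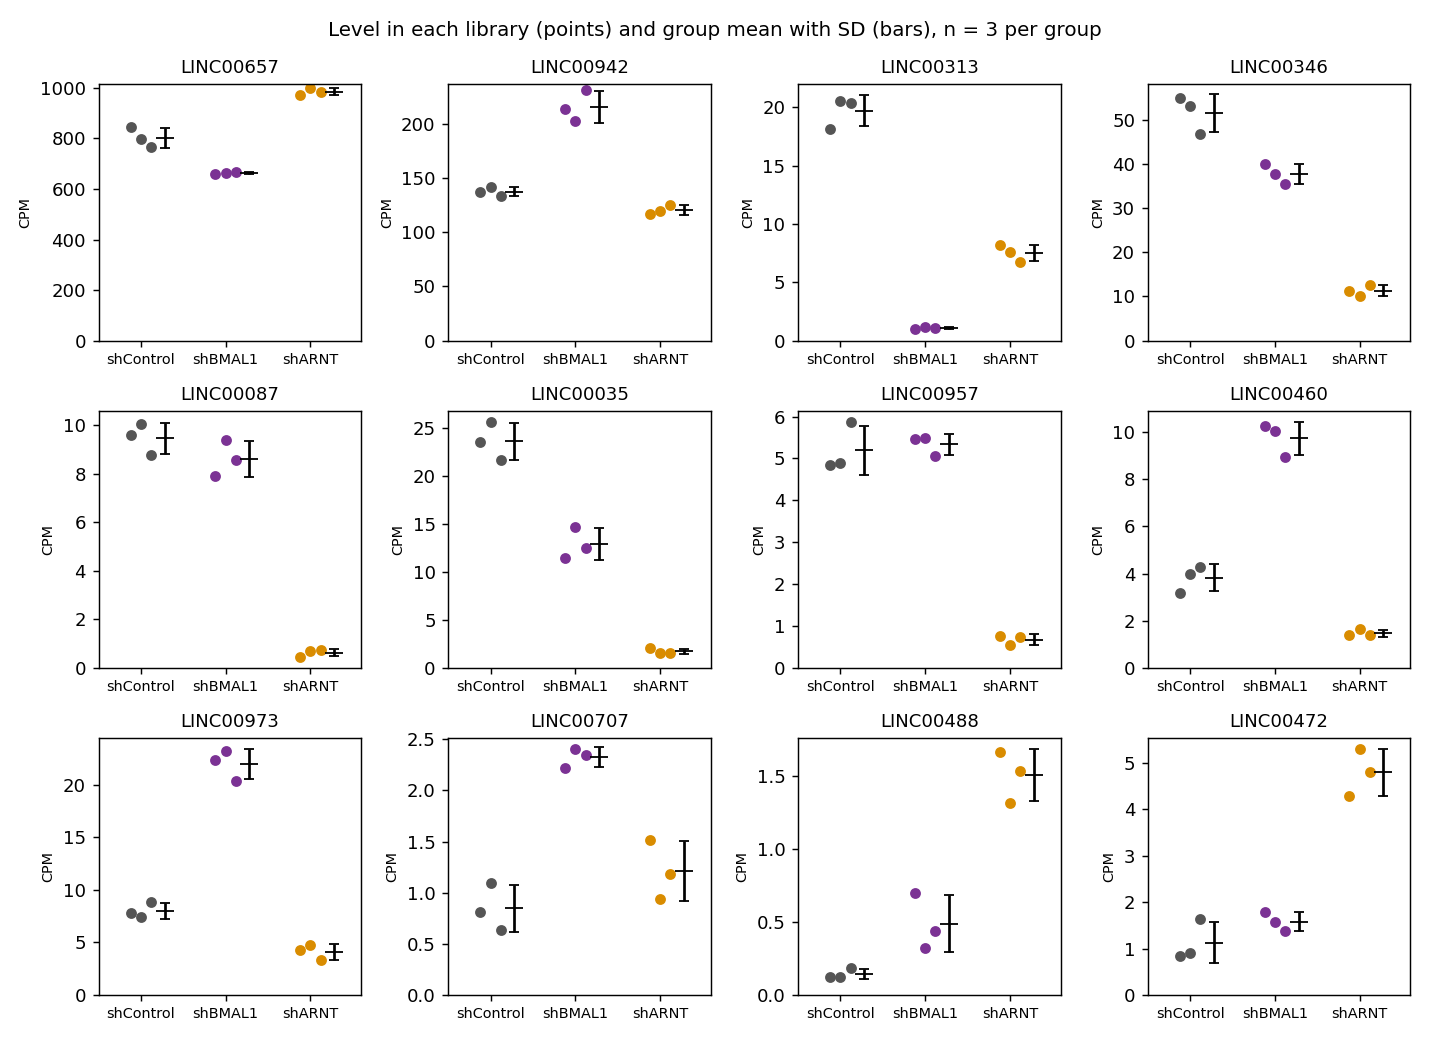
CPM of 12 members in each library (points; grey shControl, purple shBMAL1, orange shARNT) with the group mean and SD (black bars, n = 3), each axis starting at 0. LINC00313 is near 1 CPM in shBMAL1, LINC00460 and LINC00973 peak in shBMAL1 and are lowest in shARNT, and LINC00087, LINC00035 and LINC00957 are low in shARNT alone or lowest there.

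Grouped by what is known of them, members showed mixed directions. Of 13 lincRNAs tested from a list of those studied in cancer cells, 8 fell and 3 rose in shARNT, while 5 fell and 4 rose in shBMAL1, and in the direct contrast 9 were lower in shARNT and 3 higher. The shares of all genes tested were 41.3% lower and 40.5% higher in shARNT, 31.5% and 31.9% in shBMAL1, and 41.1% and 40.1% in the direct contrast, and the shBMAL1 counts of this list lie near them. Beyond those above, LINC00511 was at 1.89, 2.03 and 2.84 CPM in shControl and 0.480, 0.354 and 0.605 in shARNT, a 4.68-fold fall. LINC00941 fell 2.11-fold in shARNT and LINC00662 fell 1.91-fold, and neither was called in shBMAL1 (log2 fold changes 0.02 and -0.13). LINC00667 fell 1.63-fold in shARNT and 1.44-fold in shBMAL1, and LINC00673 fell 1.60-fold in shARNT. LINC00665 rose 1.24-fold in shARNT. LINC00261 and LINC00467 were not called in shARNT (log2 fold changes -0.18 and -0.11).

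Of 6 small protein genes with LINC names, 4 fell and 1 rose in shARNT, while 2 fell and 1 rose in shBMAL1, too few to set against the shares of all genes. LINC00086 and LINC00087 were 2 of the 4 falls. Over the 12 members listed as coding in GENCODE, 5 were lower and 3 higher in shARNT, with a median of -0.09. LINC00086 and LINC00087 were not matched there and are not among these 12. LINC00493 (SMIM26) was at 34.1, 30.6 and 31.9 CPM in shControl, 40.0, 39.3 and 43.3 in shBMAL1, and 33.5, 30.4 and 28.9 in shARNT, a rise of 1.27-fold in shBMAL1, while shARNT overlapped shControl. LINC00998 (SMIM30) fell 1.31-fold in shARNT and did not pass the test in shBMAL1 (log2 fold change 0.03). LINC00478 (MIR99AHG), the host of miR-99a, let-7c and miR-125b, was at 2.70, 3.40 and 3.30 CPM in shControl, 7.05, 6.27 and 5.00 in shBMAL1, and 2.88, 2.86 and 2.75 in shARNT. It rose 1.95-fold in shBMAL1, and shARNT overlapped shControl.

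Long noncoding RNAs with other names served for comparison. Of 21 tested, 10 fell and 7 rose in shARNT, while in shBMAL1 7 fell and 7 rose (all genes 41.3% lower and 40.5% higher in shARNT, 31.5% and 31.9% in shBMAL1). Their median log2 fold change was -0.16 in shARNT and -0.04 in shBMAL1, and the 2 named below are examples. MIR210HG, the host of the hypoxia-induced miR-210, was at 29.7, 32.6 and 31.6 CPM in shControl, 23.4, 26.2 and 20.6 in shBMAL1, and 2.30, 3.06 and 2.44 in shARNT, a log2 fold change of -3.59 ± 0.11 in shARNT. LUCAT1 changed by -1.03 in shARNT and by 0.75 in shBMAL1, in the same directions as LINC00460 and LINC00973. Of 28 factors of nuclear RNA decay and 3′ end processing, the machinery that acts on many noncoding transcripts, 7 fell and 19 rose in shARNT, while in shBMAL1 11 fell and 5 rose, beside 41.3% lower and 40.5% higher over all genes in shARNT and 31.5% and 31.9% in shBMAL1. The median log2 fold change of the 28 was 0.45 in shARNT and -0.09 in shBMAL1. An example with a larger rise is the exosome subunit EXOSC4. It was at 17.9, 15.7 and 16.6 CPM in shControl, 19.8, 21.0 and 21.3 in shBMAL1, and 66.4, 63.8 and 71.7 in shARNT. The part of these factors in the member levels was not tested.

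Members were compared with their nearest protein-coding gene in GENCODE, for 76 pairs in which both were tested. In shARNT against shControl both were called in 53 pairs, 32 of them in the same direction (60.4%), where 56.9% of pairs of neighbouring coding genes agreed. In shBMAL1 it was 21 of 31 pairs (67.7%, coding pairs 59.2%), and in shARNT against shBMAL1 35 of 55 (63.6%, coding pairs 57.3%). Individual pairs ranged widely. LINC00310 and MRPS6, 14690 bases apart, changed by -4.26 and -1.12 in shARNT, but MRPS6 changed by 1.61 in shBMAL1, where LINC00310 was not called. LINC00973 and DCBLD2, 79363 bases apart, changed by 1.46 and 0.52 in shBMAL1 and by -0.96 and -0.74 in shARNT. FOXA2, an endodermal transcription factor gene 2356 bases from LINC00261, rose by 2.23 in shBMAL1, where LINC00261 changed by 0.55, a call lost without shControl replicate 3 (0.37) or shBMAL1 replicate 1 (0.42). LINC00346 and ANKRD10 moved oppositely in shARNT, by -2.19 and 0.86. LINC00263 and SCD, the stearoyl-CoA desaturase gene, did so in shBMAL1, by 0.93 and -1.28. Both of this pair were lower in shARNT, by -0.42 and -4.14, and in shARNT against shBMAL1, by -1.35 and -2.86.

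**Figure D4:**
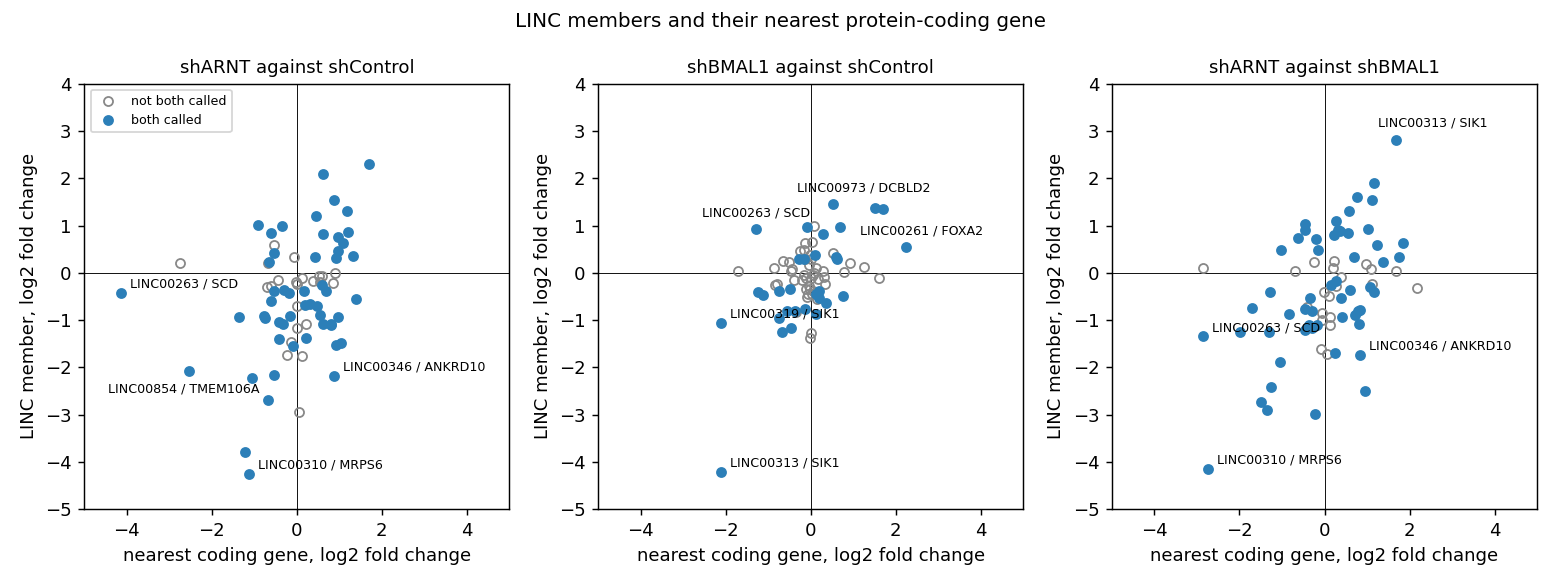
Log2 fold change of each member (vertical axis) against that of its nearest protein-coding gene (horizontal axis) for 76 pairs in 3 contrasts, with pairs called on both sides filled. Points fall in all 4 quadrants, and the pair of LINC00313 and SIK1 lies low in both in shBMAL1 (-4.21 and -2.12) and high in both in shARNT against shBMAL1.

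Among the 68 members with 1 RefSeq start, those with ACGTG or GCGTG in the promoter and those without were alike in number (34 each). In shARNT against shControl 21 of the former were lower and 8 higher, and 21 of the latter were lower and 11 higher. In shBMAL1 the counts were 8 lower and 9 higher with these letters and 18 lower and 7 higher without. In shARNT against shBMAL1 they were 22 lower and 6 higher with, and 15 lower and 15 higher without. Over all genes tested with 1 RefSeq start, 37.6% of the 4851 with these letters were lower and 45.9% higher in shARNT, and 42.9% and 38.6% of the 2828 without. In shBMAL1 31.8% were lower and 34.3% higher with the letters, and 31.9% and 30.7% without. In shARNT against shBMAL1 the shares were 37.8% and 44.8% with, and 41.9% and 38.0% without. The counts over members are small, describe the windows and were not tested.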

How the data were processed

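RNA-seq was measured in 9 A498 libraries. The authors deposited each value as an expected count, that is, total reads per gene without normalization, mostly whole numbers, with 0.05 for genes without reads. The labels give a stranded mRNA library. The study's methods name paired reads of 100 bases, GRCh37, SeqMan NGen and ArrayStar, whereas the submitters' processing notes name hg38, STAR and DESeq2. The conflict was not settled, and the table holds no coordinates. Gene positions are therefore given from GENCODE 44 on GRCh37 and promoters from RefSeq on GRCh38.p14, each on its own build.

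Rows sharing a name were summed (43 names), 28 date-like names were kept apart, 0.05 was set to 0 and the counts were rounded. Groups followed the sample titles. All 9 libraries entered 1 fit in edgeR 4.0.16 (R 4.3.3) with the group as the only factor, TMM scaling (factors of 0.932 to 0.944 for shControl libraries, 0.961 to 0.972 for shBMAL1 ones and 1.10 to 1.11 for shARNT ones), filterByExpr (15551 genes kept, all 105 members among them) and the quasi-likelihood test. A gene was called where its p, adjusted by the Benjamini-Hochberg method over all genes tested, was under 0.1, in 3 contrasts, 2 of which share the control libraries. The fit was checked on simulated data. Levels are CPM on TMM-scaled library sizes, and errors are SD over 3 libraries or SE of the fit.

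Members and lists were chosen with earlier results of these data known. Members named with values were the 5 largest called falls and rises without overlap in each contrast, the 5 most abundant by count and per kilobase, those at the threshold, and those on the lists. Other named members and pairs (LINC00319, LINC00294, LINC00263 and the neighbours) were chosen after their values were seen. MIR210HG, LUCAT1 and EXOSC4 were named from their lists as examples and not by a rule. Alternatives were DESeq2 1.42.0, library size alone, no filter, a replicate block, halved counts, a minimum fold change, the compared libraries alone, leaving out each library and narrower member sets.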

Additional observations from a re-analysis of the deposited data

Results flagged for a closer look

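Each depletion was compared with the same controls, and the difference between the depletions was tested by the direct contrast of shARNT with shBMAL1. The control libraries are not compared in this contrast but share its fit. Of 44 members named by rule, 38 were called in the direct contrast, where 41.1% of all genes tested were lower and 40.1% higher. Some of the 44 were named for their size in this same contrast, so the count itself shows nothing about the members. The values below are log2 fold changes of shARNT against shBMAL1.

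Calls against shControl were opposite in direction for 8 of them. In LINC00460 (-2.72), LINC00973 (-2.42), LINC00673 (-0.85) and LINC00942 (-0.84) shBMAL1 was above and shARNT below shControl. In LINC00176 (1.53), LINC00338 (0.79), LINC00657 (0.57) and LINC01000 (0.55) shBMAL1 was below and shARNT above. The shBMAL1 calls of LINC00673, LINC00176 and LINC01000 were lost without single libraries, and the shARNT call of LINC00942 was lost under library size scaling alone.

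Lower in shARNT, LINC00310 (-4.15), LINC00087 (-3.78), LINC00957 (-2.98), LINC00035 (-2.91), LINC00648 (-2.18), LINC00511 (-1.89), LINC00086 (-1.79) and LINC00346 (-1.74) had the largest differences. They were followed by LINC00478 (-1.11), LINC00526 (-1.11), LINC00941 (-1.10), LINC00674 (-1.07), LINC00707 (-0.94), LINC00662 (-0.80), LINC00261 (-0.74), LINC00886 (-0.73), LINC00998 (-0.41), LINC00493 (-0.40), LINC00152 (-0.38) and LINC00667 (-0.18). Higher in shARNT were LINC00313 (2.82), LINC00984 (1.89), LINC00488 (1.62), LINC00472 (1.60), LINC00116 (1.31), LINC00909 (0.92), LINC00867 (0.91), LINC00632 (0.53), LINC00324 (0.47) and LINC00665 (0.23). LINC00867, like LINC00488 and LINC00984, averaged at least 20 reads in shARNT alone, so it was selected through the group where it was high.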

How the results depend on the processing

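Of 1583 alternative values for the 44 named members, 1522 kept direction and side of the threshold, 50 fell short of it, 9 newly passed and 2 changed sign. With library size alone, LINC00942 in shARNT against shControl was at 0.04573 and LINC00667 in shARNT against shBMAL1 at 0.01392, and the members' median became -0.224 and -0.2167 in these contrasts. That setting lowers no count of members by over 1.5 times. Requiring a change of over 1.5-fold left 45 members lower and 11 higher in shARNT. It left 12 lower and 12 higher in shBMAL1, and 40 lower and 12 higher in shARNT against shBMAL1. Over all genes it left 3849 lower and 3116 higher in shARNT (6417 and 6304 without it), 1084 and 1027 in shBMAL1 (4895 and 4956), and 3814 and 3017 in the direct contrast (6389 and 6241). Leaving out single libraries moved the median between -0.5167 and -0.4025 in shARNT, the latter without shControl replicate 3, and between -0.4665 and -0.4036 in shARNT against shBMAL1. Over members with at least 100 reads (65) the counts were 38 lower and 17 higher in shARNT (median -0.3788). They were 25 lower and 21 higher in shBMAL1 (median -0.04941), and 38 lower and 17 higher in the direct contrast. Over the 61 lncRNA members without coding overlap, a set chosen after seeing the data, they were 35 and 17 (median -0.5209) in shARNT. In shBMAL1 they were 21 lower and 21 higher (median 0.02319, a changed sign), and in the direct contrast 34 and 15 (median -0.4876). These narrower sets hold fewer members by construction.

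Calls lost without a single library, beside those given above for LINC00707, LINC00176, LINC00261, LINC00472, LINC00648 and LINC01000, were as follows. LINC00867 in shARNT went from 0.83 to between 0.50 and 0.81 without shControl replicate 1 or 3 or shARNT replicate 2 or 3, and in the direct contrast to 0.71 without shBMAL1 replicate 1. In shBMAL1, LINC00467 was at -0.22 without shBMAL1 replicate 3, LINC00673 at 0.13 to 0.16 without shControl replicate 1 or 2 or shBMAL1 replicate 2, and LINC00961 at -0.43 to -0.40 without shControl replicate 1 or 3 or shBMAL1 replicate 2. In the direct contrast, LINC00324 was at 0.39 to 0.42 without shBMAL1 replicate 1 or 3 or shARNT replicate 1, LINC00632 at 0.47 without replicate 3 of either group, and LINC00665 at 0.17 to 0.19 without replicate 2 of either group. The cause was not tested. Replicate numbers did not pair the libraries (correlations of deviations from -0.04 to 0.08). With a replicate block 62 members were lower and 25 higher in shARNT, with 41.1% and 40.4% of all genes tested. DESeq2 gave 58 and 23, with 30.1% and 29.1% of 21462 genes with reads. These shares include scarce genes that the filter removes and are not comparable with those of the main fit. Without the filter, edgeR called 31.9% lower and 30.4% higher of 21462 genes. Depth limits members near 20 reads, and 5 members have fractional counts, so reads they share with other genes are uncertain.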
